A study of Mus musculus with 14 samples.

Results

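The MYC network and the cyclins that carry a cell out of G1 were followed across normal mouse intestine, intestinal adenomas and a colon carcinoma cell line. A set of 10 genes was read, namely Myc, Mycn, Max, Mxd1, Mxi1, Ccnd1, Ccnd2, Ccnd3, Ccne1 and Cdk4. They were taken by name from the annotation of the array and are 10 of the 36161 gene names and 15 of the 55681 probes on it. RNA was hybridised in 1 colour to Agilent SurePrint G3 Mouse arrays, 14 in all, in 5 groups. Small intestine (3 arrays) and colon (3 arrays) are labelled as C57BL/6J. Adenomas (3 arrays) and the non-tumor tissue beside them (2 arrays, called adjacent below) came from mice carrying ApcMin/+, a truncating allele of Apc present in every cell of the animal, on a C57BL/6J background. The wild type animals were adult, and the age of the ApcMin/+ mice is not given in the sources used here. CT26 (3 arrays) is a carcinogen-induced colon carcinoma line of BALB/c origin from the American Type Culture Collection, so its comparison with colon also crosses strain and culture.

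MYC, the product of Myc, and its relative MYCN bind DNA only as a pair with MAX, and the pair recognises the E-box word CACGTG and raises transcription of genes for ribosome production, nucleotide synthesis and cell growth. MXD1 and MXI1 compete for MAX and repress the same kind of sites, and MXD1 is known for rising as cells leave the cycle and differentiate. D-type cyclins (Ccnd1, Ccnd2, Ccnd3) activate CDK4 to phosphorylate RB, cyclin E (Ccne1) then activates CDK2, and release of E2F factors opens S phase. In the intestine, loss of APC stabilises beta-catenin, and Myc is a known target of beta-catenin with TCF factors in crypts and adenomas.

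Promoter sequence, from 250 bases before to 50 bases after the RefSeq start (build GRCm38.p6), was at hand for 7 of the 10 genes. It was searched on both strands for the E-box CACGTG and for 3 E2F-type words, TTTGGCGC, TTTCGCGC and TTTCCCGC. The promoters of Cdk4, Max and Mycn are shown because only these 3 of the 7 genes held a match. Matches are in capitals:
Cdk4: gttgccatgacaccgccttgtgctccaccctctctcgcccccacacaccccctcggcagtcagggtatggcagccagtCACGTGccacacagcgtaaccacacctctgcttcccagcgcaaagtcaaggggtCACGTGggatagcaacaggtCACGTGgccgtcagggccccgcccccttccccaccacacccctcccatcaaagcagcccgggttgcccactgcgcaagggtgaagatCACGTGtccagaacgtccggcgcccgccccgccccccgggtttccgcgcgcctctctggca
Max: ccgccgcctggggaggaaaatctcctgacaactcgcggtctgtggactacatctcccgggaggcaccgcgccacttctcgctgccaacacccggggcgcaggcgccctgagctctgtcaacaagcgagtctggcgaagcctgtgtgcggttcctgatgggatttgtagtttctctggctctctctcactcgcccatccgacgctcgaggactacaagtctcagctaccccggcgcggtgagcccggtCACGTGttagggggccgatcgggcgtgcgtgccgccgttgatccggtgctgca
Mycn: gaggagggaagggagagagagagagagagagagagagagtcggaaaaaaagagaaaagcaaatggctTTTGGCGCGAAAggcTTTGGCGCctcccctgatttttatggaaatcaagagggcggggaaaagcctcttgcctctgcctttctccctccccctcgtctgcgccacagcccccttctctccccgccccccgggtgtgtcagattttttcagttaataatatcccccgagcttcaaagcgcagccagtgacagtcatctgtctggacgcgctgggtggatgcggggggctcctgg
The Cdk4 promoter (chr10:127063285-127063584, plus strand) held 4 E-boxes, which begin at -172, -118, -98 and -11 counted from the transcript's first base as +1. Of 32851 promoters of this length, 7.15% held at least 1 E-box and 0.0244% (8 promoters) held at least 4. The Max promoter (chr12:76962199-76962498, minus strand) held 1 E-box across its start, beginning at -3. The Mycn promoter (chr12:12941787-12942086, minus strand) held no E-box and 3 E2F-type words, beginning at -183, -179 and -168, of which the first pair overlap as 1 stretch on opposite strands. An E2F-type word was present in 1.84% of promoters, and at least 3 in 0.0122%. A match of letters does not show that a factor binds there.

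Signals are given on a log2 scale relative to each array's own 75th percentile, so 1 unit is a doubling, and each gene is read from its brightest probe. On a single array 46.8% to 58.2% of probes exceeded background clearly, and the mean of a group rests on 2 or 3 arrays, which limits the precision. Colon replicate 3 stood apart. It correlated at 0.960 to 0.966 with the small intestine arrays and at 0.937 to 0.939 with the other colon arrays, which correlated at 0.979 with each other. Its median over 10 small intestine enterocyte markers was 5.80, against -2.66 and -1.57 on the other colon arrays, and its median over 8 colonocyte markers was -0.44 against 4.63 and 4.73. Its B cell marker median was 1.69, against -1.19 and -0.47. The accompanying sample list enters a colon sample under an ApcMin/+ mouse, whereas the labels give C57BL/6J for each, and it enters the adenoma and adjacent pieces under a single ApcMin/+ mouse. Replicates of adenoma and adjacent tissue then measure the spread between pieces of that animal. In CT26, 2 of 8 epithelial markers (Epcam, Cdh1, Vil1, keratins and others) were above background on all 3 arrays and 5 on none, with list medians of -6.75 to -6.33 against 6.52 or more in every tissue, and so most of the markers that define epithelium were not detected in the line.

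Relative to small intestine, adenomas carried more RNA of both MYC genes, of Ccne1 and of Cdk4, and less of Max and Mxd1. Of 9 members tested, 4 rose (Myc, Mycn, Ccne1 and Cdk4) and 2 fell (Max and Mxd1), counting a gene as changed at an adjusted p of at most 0.01 and a log2 fold change of at least 1.2. The same rule called 22.4% of the 22089 genes tested. The tenth member, Mxi1, was above background on 1 of 14 arrays, a CT26 array, and was not tested in any comparison. Its signal ran from -7.60 to -4.51, and its single probe was designed on 1 transcript variant.

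Myc (probe at chr15:61821417-61821476, mm9) read -0.45, -0.93 and -1.60 in small intestine and 1.2, 0.85 and 1.14 in adenoma. Every adenoma array lay above every small intestine array, and the log2 difference was 2.05 ± 0.299 (SE), a 4.15-fold rise (adjusted p = 0.00177). Mycn, known best from the developing nervous system (probe at chr12:12943193-12943252, mm9), read -1.56, -2.29 and -2.77 in small intestine and -0.06, 0.01 and 0.40 in adenoma. The groups did not overlap and Mycn rose 5-fold (log2 difference 2.32 ± 0.319, adjusted p = 0.00137).

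Max, the obligate partner of both, read 5.16, 5.51 and 5.91 in small intestine and 3.56, 3.55 and 3.71 in adenoma. It fell in the same tissue in which Myc and Mycn rose, by 1.92 ± 0.219 on the log2 scale (adjusted p = 0.000688). Mxd1, the antagonist, read 5.26, 5.34 and 6.24 in small intestine and 3.1, 3.39 and 2.99 in adenoma. It fell by 2.46 ± 0.291 (adjusted p = 0.000773), and its second probe by 2.94 ± 0.338 (adjusted p = 0.000702). The fall of Max and Mxd1 stood beside a fall of the 10 enterocyte markers, of which 6 were lower and none higher, with list medians of 5.91 to 9.20 in small intestine and 5.29 to 6.10 in adenoma. In bulk tissue, fewer cells of a type and less RNA per cell cannot be told apart, and the part of cell composition in these values was not tested.

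Among the cyclins only Ccne1 was called. It read 1.08, 0.17 and -0.29 in small intestine and 2.92, 2.65 and 2.70 in adenoma, a rise of 2.44 ± 0.340 (5.42-fold, adjusted p = 0.00147). Ccnd1 read 3.45, 2.25 and 1.48 in small intestine and 4.20, 4.04 and 4.20 in adenoma. No array overlapped, but the small intestine arrays spread widely, and the difference of 1.76 ± 0.457 missed the threshold (adjusted p = 0.0167). It passed with normexp background correction (adjusted p = 0.00703), in the authors' table (0.00634) and without small intestine replicate 1 (0.000864). Ccnd2 (0.17 ± 0.318, adjusted p = 0.678) and Ccnd3 (0.45 ± 0.149, adjusted p = 0.0382) were not called, Ccnd2 with overlapping groups and Ccnd3 without overlap. How often all genes lack overlap between adenoma and small intestine was not counted. Cdk4, the kinase of the D cyclins, read 3.94, 3.68 and 3.28 in small intestine and 5.31, 5.21 and 5.14 in adenoma. It rose 3.01-fold (1.59 ± 0.206, adjusted p = 0.00109), and its other 2 probes gave 1.59 and 1.65.

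**Figure D1:**
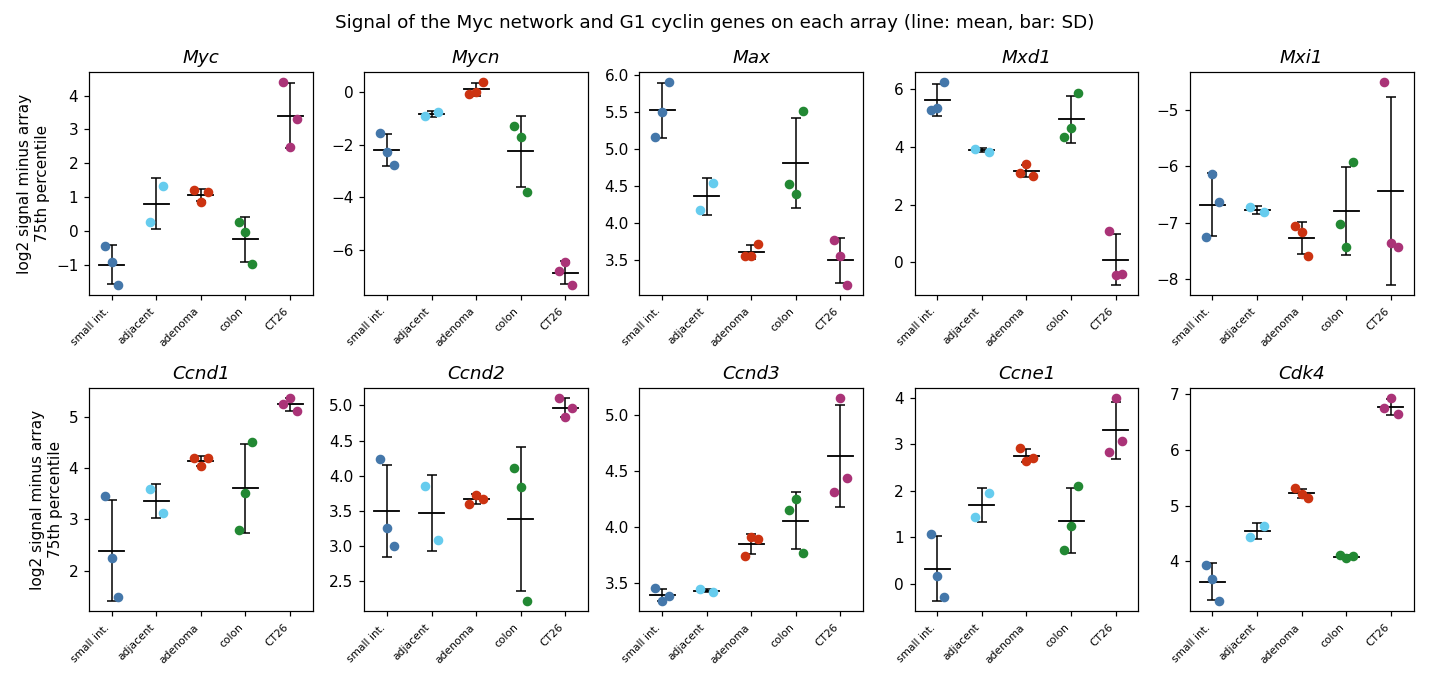
Log2 signal minus the array's 75th percentile for each of the 10 genes (brightest probe) on each array, with points as arrays, the line as group mean and the bar as SD. Myc, Ccne1 and Cdk4 are lowest in small intestine and highest in CT26, while Mxd1 runs the other way, from 5.26 or more in small intestine to 1.10 or less in CT26.

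Target genes of MYC and of E2F were mostly higher in adenoma as well, and whether the members caused this was not tested. Of 16 MYC target genes of ribosome production and metabolism, 10 rose and none fell (median log2 difference 1.38, against -0.15 over all genes tested), led by Rrs1 (1.90 ± 0.343, adjusted p = 0.00410), Srm, the spermidine synthase (1.88 ± 0.327, adjusted p = 0.00359), and Shmt2, a mitochondrial serine and glycine enzyme (1.79 ± 0.217, adjusted p = 0.000840). Of 12 E2F target genes of S phase, 8 rose and none fell (median 1.75), with Mcm3 at 2.59 ± 0.350 (adjusted p = 0.00130) and Rrm2, a ribonucleotide reductase subunit, at 2.38 ± 0.238 (adjusted p = 0.000415). Among 19 tested genes of the other G1 to S machinery, 4 rose and 1 fell (median 0.46), a share near that of all genes. Those that rose included Cks1b, a partner of cyclin-dependent kinases (2.36 ± 0.320, adjusted p = 0.00130), E2f7 (2.12 ± 0.403, adjusted p = 0.00500) and E2f1 (1.96 ± 0.302, adjusted p = 0.00225).

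Of 11 tested genes of the wider MYC, MAX and MLX network, 1 rose, 2 fell and 8 were not called (median 0.057), a share near that of all genes. Mlxipl, the glucose-sensing partner of MLX, fell by 2.11 ± 0.253 (adjusted p = 0.000813) and Mlx by 1.87 ± 0.167 (adjusted p = 0.000272), while Mxd3, a family member expressed in cycling cells, rose by 1.77 ± 0.394 (adjusted p = 0.00925). Of 14 Wnt and beta-catenin target genes 12 rose (median 2.64), with Wif1 at 6.88, Lef1 at 5.77 and Nkd1 at 4.72. Of 8 cell division markers 7 rose, with list medians of 0.79 to 2.03 in small intestine and 2.97 to 3.20 in adenoma. Neutrophil markers (4 of 6 tested rose), endothelial markers (5 of 8) and fibroblast markers (3 of 8) were also higher in adenoma, and T cell markers lower (3 of 7, median -1.08). The part of these cells in the member values was not tested.

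In the tissue beside the adenomas, no member passed the test against either side. None was called in adjacent tissue against small intestine, where the rule called 0.00924% of 21634 genes, and 30.6% of them had an unadjusted p under 0.05. Myc read 0.27 and 1.34 in adjacent tissue. Both values exceed those of small intestine, the difference was 1.80 ± 0.459 with adjusted p = 0.0785, and the larger value exceeds every adenoma array. Of the other members, Mxd1 (3.93 and 3.83, a difference of -1.74 ± 0.347), Mycn (-0.91 and -0.75, 1.38 ± 0.377), Ccne1 (1.43 and 1.96, 1.37 ± 0.439), Max (4.18 and 4.54, -1.16 ± 0.292) and Cdk4 (4.44 and 4.64, 0.90 ± 0.265) also had no array in common with small intestine, at adjusted p values from 0.0596 to 0.110. How often all genes lack overlap between these groups was not counted, so the separation is a description only. Ccnd1 read 3.59 and 3.12, within reach of the highest small intestine array, and differed by 0.96 ± 0.574 (adjusted p = 0.297).

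Placed on a scale on which small intestine is 0 and adenoma is 1, the adjacent mean stood at 0.55 for Ccnd1, 0.56 for Ccne1, 0.57 for Cdk4, 0.59 for Mycn, 0.61 for Max, 0.71 for Mxd1 and 0.87 for Myc. Ccnd3 stood at 0.09 and Ccnd2 at -0.2, where small intestine and adenoma themselves differed by 0.45 and 0.17, and Mxi1 was below background throughout these groups. These positions are a description of 2 adjacent arrays, whose Myc values differed from each other by more than their Cdk4 values did.

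**Figure D2:**
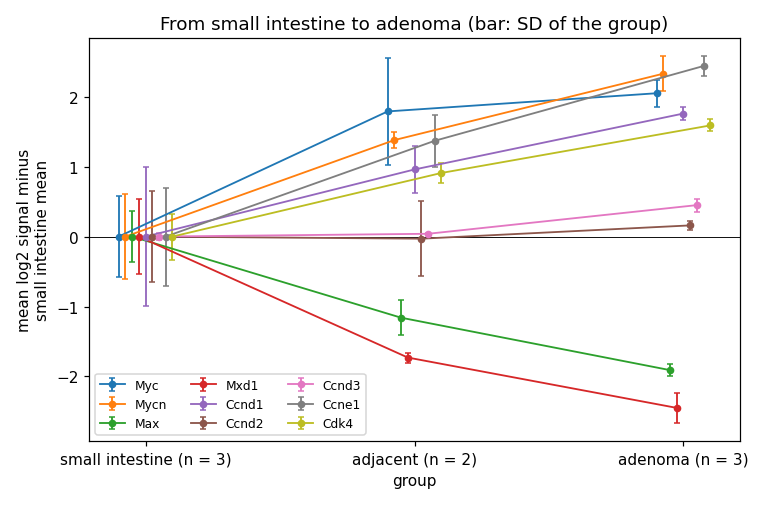
Group mean log2 signal minus the small intestine mean for 9 genes in small intestine, adjacent tissue and adenoma, with bars as the SD of each group. Ccnd2 and Ccnd3 stay within 0.45 of the small intestine mean, Max and Mxd1 step down, and Myc reaches 1.80 of its 2.05 in adjacent tissue.

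Adenoma against adjacent tissue gave no called member either, with 4.18% of 22195 genes called. The largest differences were those of Ccne1 (1.07 ± 0.213, adjusted p = 0.0249) and Mycn (0.95 ± 0.196, adjusted p = 0.0273), followed by Ccnd1 (0.80 ± 0.195, adjusted p = 0.0412), Max (-0.75 ± 0.175, adjusted p = 0.0363), Mxd1 (-0.72 ± 0.181, adjusted p = 0.0441) and Cdk4 (0.68 ± 0.156, adjusted p = 0.0344). Each of these 6 had no overlap between adenoma and adjacent arrays and kept the direction it had against small intestine, although these comparisons share the adenoma arrays. The share of all genes without overlap was not counted here either. Myc overlapped and differed by 0.26 ± 0.335 (adjusted p = 0.602). Of 12 E2F target genes 4 rose, among them Rrm2 (1.39 ± 0.172, adjusted p = 0.00778), and of 14 Wnt target genes 6 rose, led by Wif1 (5.09 ± 0.521, adjusted p = 0.00554). None of 16 MYC target genes was called (median 0.58). These list calls were not stable, since no gene at all was called without adenoma replicate 2 or with the numbers in the sample titles as a block, and 5.69% were without adjacent replicate 2.

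No member passed the test between colon and small intestine. The rule called 0.00969% of 20642 genes, and 23.8% had an unadjusted p under 0.05. Ccnd3 read 4.15, 4.25 and 3.77 in colon, above all small intestine arrays (3.45, 3.34 and 3.38), with a difference of 0.67 ± 0.232 (adjusted p = 0.162). Cdk4 read 4.11, 4.05 and 4.09 in colon, also above small intestine, with a difference of 0.45 ± 0.251 (adjusted p = 0.317). The other 7 tested members overlapped, and the share of all genes without overlap was not counted. Colon replicate 3 was the array farthest from the other colon arrays for 9 of the 10 members, and without it Mxd1 was lower by 1.13 ± 0.361 (adjusted p = 0.0693) and Myc higher by 1.11 ± 0.372 (adjusted p = 0.0780) in colon, still short of the threshold, in a fit that called 7.23% of 22596 genes.

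CT26 cells carried more Myc, Ccne1 and Cdk4 RNA and less Mxd1 RNA than colon. Of 8 members tested 3 rose and 1 fell, where 37.2% of 21676 genes were called and the median of all genes was 0.32. Myc read 0.26, -0.02 and -0.99 in colon and 4.4, 2.48 and 3.32 in CT26. The groups were well separated, and Myc rose 12.6-fold (3.65 ± 0.550, adjusted p = 0.00114). Cdk4 read 6.75, 6.93 and 6.65 in CT26, each more than 2 log2 units above every colon array, and rose 6.47-fold (2.69 ± 0.261, adjusted p = 0.000128), with 2.87 and 3.15 at its other probes.

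Mxd1 read 4.33, 4.65 and 5.87 in colon and 1.10, -0.42 and -0.41 in CT26. It fell by 4.86 ± 0.563 on the log2 scale (adjusted p = 0.000314), or 29.0-fold, and the difference was -6.51 ± 0.390 at its second probe (adjusted p = 1.15e-05). Mycn was not above background on any CT26 array (-6.81, -6.46 and -7.35) and was above it on 2 of 3 colon arrays (-1.26, -1.68 and -3.79). It was therefore not tested in the whole groups, and was at least 8.19-fold lower in CT26, taking the lowest signal that passes as above background for the dim side. Without colon replicate 3 it passed the filter and was called lower (adjusted p = 2.29e-05). It passed only through the colon arrays, where it is high, so that call adds no support. Max read 3.77, 3.55 and 3.16 in CT26 and 4.53, 4.39 and 5.52 in colon, and its difference of -1.32 ± 0.384 missed the threshold (adjusted p = 0.0220), which it passed with quantile normalization (-1.82, adjusted p = 0.00203) and in the authors' table (-1.79, adjusted p = 0.00136).

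Ccne1 read 0.73, 1.24 and 2.10 in colon and 2.83, 3.99 and 3.08 in CT26, a rise of 1.95 ± 0.463 (adjusted p = 0.00937), close to the threshold, which it missed when any array other than colon replicate 3 was left out (adjusted p up to 0.0344). It also missed it with slide as a block (0.0111), the replicate number as a block (0.0136), no filter (0.0191), quantile normalization (0.0258) and in the authors' table (0.0225). Its second probe rose by 3.17 ± 0.456 (adjusted p = 0.000908). At the brightest probe the D cyclins were higher on every CT26 array than on any colon array without being called, Ccnd1 by 1.64 ± 0.448 (5.25, 5.37 and 5.13 against 2.79, 3.51 and 4.52, adjusted p = 0.0169), Ccnd2 by 1.58 ± 0.504 (5.10, 4.83 and 4.97 against 4.11, 3.84 and 2.21, adjusted p = 0.0313) and Ccnd3 by 0.58 ± 0.334 (adjusted p = 0.186). The second Ccnd3 probe overlapped. How often all genes lack overlap between CT26 and colon was not counted, so the separation is a description only. Without colon replicate 3, 6 of 9 members tested were called, 2 more than with it, as Mycn and Ccnd1 joined, in a fit that called 39.5% of 23161 genes.

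MYC target genes were mostly higher in CT26 too, and whether Myc caused this was not tested. In CT26 against colon 14 of 16 MYC target genes rose and none fell (median 2.41), led by Shmt2 (4.45 ± 0.400, adjusted p = 8.78e-05), Srm (4.32 ± 0.333, adjusted p = 4.01e-05) and Nop56, a nucleolar protein of ribosomal RNA processing (3.80 ± 0.384, adjusted p = 0.000159). Of 12 E2F targets 8 rose and none fell (median 2.06). Of 19 other G1 to S genes 8 rose and none fell, a share called near that of all genes. Among them were Skp2, a ubiquitin ligase subunit that targets inhibitors of cyclin-dependent kinases, at 3.54 ± 0.355 (adjusted p = 0.000152) and Cks1b at 3.53 ± 0.321 (adjusted p = 9.30e-05). Of 11 tested genes of the wider MYC, MAX and MLX network, 1 rose, 2 fell and 8 were not called. This is a smaller share called than the 37.2% of all genes. Trrap, a cofactor of MYC, rose by 1.99 ± 0.279 (adjusted p = 0.000797) and Mlxipl fell by 4.70 ± 0.525 (adjusted p = 0.000260). Mycl1, the third MYC family gene, was above background on no CT26 array and was at least 16.6-fold lower than in colon (adjusted p = 9.98e-06). It too entered the test through its colon arrays alone. Of 13 Wnt targets tested, 6 fell, 2 rose and 5 were not called. Of all 14 Wnt targets 6 were above background on no CT26 array. Those of them that were tested entered through their colon arrays alone, so only a lower call was open to them. Cell division markers had list medians of 4.82 to 5.08 in CT26 and 2.01 to 2.40 in colon, and epithelial markers were lower for 8 of 8. Markers of smooth muscle (7 of 8 tested), B cells (6 of 7), macrophages (5 of 7), endothelium (4 of 6), colonocytes (4 of 7) and T cells (3 of 5) were lower too. These lists, like those of epithelium and enterocytes, held genes above background on no CT26 array, among them 5 of 8 epithelial markers. The same limit applies to such genes. Of 8 tested enterocyte markers 3 were lower, near the share called over all genes. Fibroblast markers were mixed, with 3 of 8 higher and 2 lower, and 1 of 2 tested neutrophil markers was higher. Their part in the member values was not tested.

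**Figure D3:**
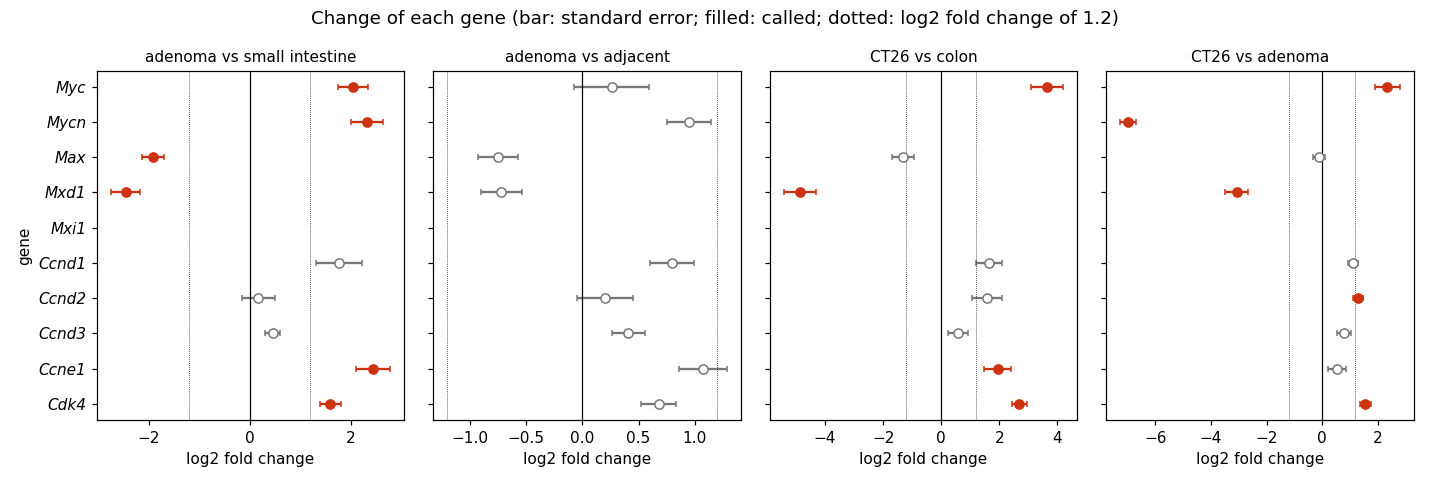
Log2 fold change of each gene (bars: standard error) in 4 comparisons, each with its own horizontal scale, filled where called and with dotted lines at the fold change threshold of 1.2. Myc, Ccne1 and Cdk4 are called higher and Mxd1 lower both in adenoma against small intestine and in CT26 against colon, Mycn in CT26 is below background so that its -6.99 is no measured size, and no gene is called against adjacent tissue.

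CT26 and adenoma, set side by side, differed most at Mycn. Of 9 members tested 3 rose and 2 fell in CT26, where 41.9% of 22806 genes were called and the median of all genes was 0.34. Mycn was above background on 3 of 3 adenoma arrays and on no CT26 array, and was at least 42.0-fold lower in CT26 on this scale (adjusted p = 3.95e-07). It entered this test through its adenoma arrays alone, so the filter fixed the direction and the adjusted p adds no support. The log2 difference of -6.99 was -3.86 with normexp background correction and -3.51 in the authors' table, both called under the same filter. Mxd1 fell by 3.07 ± 0.417 (adjusted p = 0.000417). Myc rose 5.06-fold (2.34 ± 0.447, adjusted p = 0.00249), Cdk4 2.94-fold (1.56 ± 0.188, adjusted p = 0.000215) and Ccnd2 2.47-fold (1.30 ± 0.186, adjusted p = 0.000543). Ccnd1 had a small adjusted p (0.00134) with a difference of 1.10 ± 0.186, under the fold threshold. Max (-0.11 ± 0.220, adjusted p = 0.676) and Ccne1 (0.54 ± 0.316, adjusted p = 0.169) overlapped between the groups, although the dimmer second probe of Ccne1 was called (1.68 ± 0.359, adjusted p = 0.00430). MYC targets rose for 11 of 16 genes (median 1.70), while 10 of 14 Wnt targets fell, Nkd1 being at least 1070-fold lower. Of these 14 Wnt targets 6, Nkd1 included, were above background on no CT26 array. They entered the test through their adenoma arrays alone, so only a lower call was open to them. E2F targets rose for 3 of 12 genes (median 0.77), a smaller share than the 41.9% of all genes called. Markers of epithelium (8 of 8), enterocytes (10 of 10), smooth muscle, endothelium and macrophages (7 of 8 each) and neutrophils (5 of 6) were lower in CT26 as well. Each of these lists also held genes above background on no CT26 array, to which only a lower call was open. Of 8 cell division markers 4 were higher, near the share called over all genes. The part of these cells in the member values was not tested. With quantile normalization or in the authors' table, 1 member rose (Myc) and 2 fell (Mycn and Mxd1), since Cdk4 (1.02 and 1) and Ccnd2 (0.77 and 0.76) then stood under the fold threshold. Without adenoma replicate 2, Myc had an adjusted p of 0.0130.

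Adenoma against colon, a comparison across gut segments, called no member and 3.70% of 21859 genes. Mycn differed by 2.36 ± 0.656 (adjusted p = 0.0690), Mxd1 by -1.79 ± 0.421 (adjusted p = 0.0447), Ccne1 by 1.40 ± 0.363 (adjusted p = 0.0578), Myc by 1.31 ± 0.353 (adjusted p = 0.0630), Max by -1.21 ± 0.328 (adjusted p = 0.0656) and Cdk4 by 1.14 ± 0.166 (adjusted p = 0.0108), with no overlap for any of the 6. The other 2 Cdk4 probes were called higher, at 1.3 (adjusted p = 0.00883) and 1.35 (adjusted p = 0.00949). The share of all genes without overlap was again not counted. Without colon replicate 3, Mycn (1.59 ± 0.224, adjusted p = 0.00569), Mxd1 (-1.33 ± 0.200, adjusted p = 0.00700) and Ccne1 (1.77 ± 0.211, adjusted p = 0.00333) were called, in a fit that called 11.7% of 23061 genes. Its signal of Mycn (-3.79) was the lowest of the tissue arrays and its signal of Mxd1 (5.87) the highest of the colon arrays.

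Whether the 2 tumor models changed by different amounts, each against its own normal tissue, was tested as a difference of differences, (CT26 minus colon) minus (adenoma minus small intestine). Only Mycn was called of 9 members tested, at -6.95 ± 0.805 (adjusted p = 4.56e-05), against 30.8% of 23415 genes. Mycn rose in adenoma and was not above background in CT26, so the size of this value is not a measured one. The filter let it in through tissue arrays alone, so its adjusted p carries the same limit. Mxd1 (-2.40 ± 0.694, adjusted p = 0.0154) and Cdk4 (1.11 ± 0.300, adjusted p = 0.0111) missed the threshold at the brightest probe and passed it at others, the second Mxd1 probe at -3.58 ± 0.543 (adjusted p = 0.000326) and the other 2 Cdk4 probes at 1.28 and 1.5 (adjusted p = 0.00510 and 0.00462). Myc (1.60 ± 0.684, adjusted p = 0.0783), Ccne1 (-0.49 ± 0.617, adjusted p = 0.545) and Ccnd1 (-0.12 ± 0.693, adjusted p = 0.906) were not shown to differ. The second Ccne1 probe had the opposite sign and was not called either (0.89 ± 0.739, adjusted p = 0.352). The median of all genes was 0.43 here. Of 16 MYC target genes 7 were called with a larger rise in CT26 and none with a smaller one, among them Odc1, the ornithine decarboxylase (2.35 ± 0.386, adjusted p = 0.000562).

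**Figure D4:**
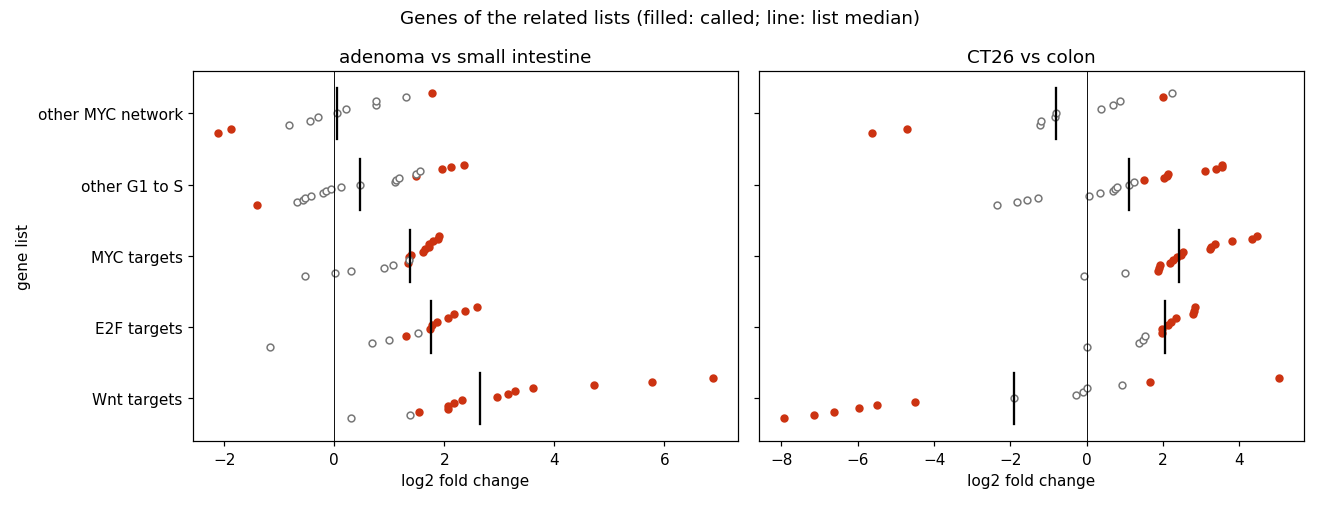
Log2 fold change of the tested genes of 5 related lists in adenoma against small intestine (left) and CT26 against colon (right), filled where called, with the line at the list median. MYC targets (medians 1.38 and 2.41) and E2F targets (1.75 and 2.06) lie to the right in both panels, while the Wnt target median goes from 2.64 to -1.91. Of the 14 Wnt targets 6 are above background on no CT26 array, so their values on the right are no measured sizes.

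Ordered by group mean, Myc, Ccne1 and Cdk4 ran from CT26 through adenoma, adjacent tissue and colon down to small intestine. Max and Mxd1 ran in exactly the opposite order. For Cdk4 no 2 neighbours in this order overlapped. For Mxd1 only small intestine and colon did, and for Myc adenoma overlapped with adjacent tissue and colon with small intestine. Max separated only adjacent tissue from adenoma, and Ccne1 only adenoma from adjacent tissue, their other neighbours overlapping. This holds for the brightest probes, and how often all genes separate in this way was not counted. The dimmer Cdk4 probes overlapped between colon and small intestine, and the second Mxd1 probe also between colon and adjacent tissue. The second Ccne1 probe separated CT26 from adenoma but overlapped between adenoma and adjacent tissue. Ccnd1 and Ccnd2 were highest in CT26, separated from adenoma, with all lower neighbours overlapping. Ccnd3 was highest in CT26 (4.31, 5.15 and 4.44) and next in colon, and Mycn was highest in adenoma and lowest in CT26. No level is compared between genes, since the probes differ.

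Among 16022 genes above background on all 14 arrays, the named gene most like Myc was Zfp593 (Pearson r = 0.986), with Ftsj3 (0.979) and Polr1b, a subunit of RNA polymerase I (0.978), among the 5 nearest. Birc5, the mitotic survivin (0.973), Rbm3 (0.972) and Cdca5, a cohesin regulator (0.958), were among the 5 nearest to Ccnd1. Gm5643 (0.994), Orc6, of the origin recognition complex (0.994), and Nup155, a nuclear pore protein (0.993), were among those nearest to Cdk4. The remaining places were taken by probes without a current gene symbol. The 14 arrays fall into 5 groups and share 2 slides, so these values describe the groups more than single arrays. Several members had more than 1 probe, and these gave the same direction in every pair of groups in which they were tested. In the difference of differences the Ccne1 probes had opposite signs.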

How the data were processed

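Array intensities were produced by the authors with Agilent Feature Extraction 10.7.3.1, and each deposited scanner file holds the intensity of every spot with background and outlier flags. Probe positions are those of the array design (mm9). The authors also deposited a table of normalized log2 values, used here as an alternative, whose columns each correlated best with their own array. From the scanner files, control spots and outlier flags were left out, log2 of the processed signal minus the array's 75th percentile was taken, and spots of 1 probe were averaged. Each pair of groups was fitted on its own arrays with limma 3.58.1 in R 4.3.3 (lmFit, eBayes), over probes that cleared background on all arrays of 1 or more of the groups, with Benjamini-Hochberg adjustment over those probes. The thresholds (adjusted p at most 0.01, log2 fold change at least 1.2) are those of the study's methods. The counts still differ from the paper's. More genes were called higher here in adenoma against small intestine than the paper reports, and fewer were called between colon and small intestine. Calls here are therefore not comparable with its counts, and the cause was not tested. A gene was read from the probe with the highest mean over the 14 arrays. Where no array of a group cleared background, the fold is a lower bound, in which each dim array counts at the faintest signal that clears background there, or at its measured value if that is higher. The 2 slides were tested as a block, with which Ccne1 in CT26 against colon was no longer called. Every member called between 2 groups kept its direction within each slide. None of them overlapped between its groups, so this outcome was fixed in advance and adds no support.

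Members and gene lists were chosen with earlier results of these data known, so list counts and medians are descriptions. All 10 members are named, and of each list the 3 called genes with the largest change in a comparison could be named. Groups come from the labels. Where the labels do not say whether samples are separate animals or cultures, p-values measure the spread between these samples, which may be technical. The fit was tested on simulated data, but the outcome is not given here and adds no support. Alternatives were normexp background correction (offset 50), quantile normalization, no filter and a strict filter on dim probes, the authors' table, all 5 groups in 1 fit, the slide or the replicate number as block, an adjusted p of 0.05 with no minimum fold change, any probe of a gene, and each array left out in turn.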

Additional observations from a re-analysis of the deposited data

Results flagged for a closer look

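Mycn differed between the tumor models, each set against its own normal tissue. The value of (CT26 minus colon) minus (adenoma minus small intestine) was -6.95 on the log2 scale (limma, adjusted p = 4.56e-05). Mycn was higher on 3 of 3 adenoma arrays than on any small intestine array. It was not above background on any CT26 array, so the CT26 side is a bound and -6.95 is not a measured size. The filter let it in through tissue arrays alone, so its adjusted p carries the same limit. The value was -4.05 with normexp background correction, -3.55 in the authors' table and -7.73 without colon replicate 3, and Mycn was called in each. These calls used the same filter and add no support, and the strict filter leaves Mycn out.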

How the results depend on the processing

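The 6 members called in adenoma against small intestine stayed called under every alternative run, with 6 to 7 called when an array was left out. Counts moved by over 1.5 times elsewhere. In CT26 against adenoma 3 members were called with quantile normalization and 3 in the authors' table, against 5, and 4 to 5 when an array was left out. In CT26 against colon 7 were called at an adjusted p of 0.05 with no minimum fold change and 7 with all 5 groups in 1 fit (53.1% and 44.2% of all genes), against 4, and 3 to 6 when an array was left out. At that looser threshold adenoma against adjacent tissue gave 6 (20.2% of all genes), adenoma against colon 2 (12.7%) and the difference of differences 3 (45.4%). Reading any probe gave 1 in adenoma against colon (Cdk4) and 3 in the difference of differences. The latter had 2 called in the authors' table, 2 with quantile normalization, 0 with the strict filter, which leaves Mycn out, and 1 to 2 without single arrays (2 without CT26 replicate 1 or small intestine replicate 3). Adenoma against colon gave 0 to 3 when an array was left out, and 3 only without colon replicate 3. Quantile normalization moved the median of all genes from -0.15 to -0.033 in adenoma against small intestine and from 0.43 to 0.22 in the difference of differences.

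Values that changed sign were uncalled in each case. Ccnd2 in adjacent tissue against small intestine was 0.31 in the authors' table, 0.32 with quantile normalization and 0.056 with slide as a block, and -0.42 to 0.35 without single arrays. Ccnd2 in colon against small intestine was 0.16, 0.18 and 0.063 under the same settings, and -0.47 to 0.48 without single arrays. Leaving out arrays moved Ccnd2 from -0.18 to 0.58 in adenoma against adjacent tissue, from -0.31 to 0.64 against colon and from -0.082 to 0.54 against small intestine. Mycn in colon against small intestine was 0.043 in the authors' table, 0.18 with normexp and 0.13 with slide as a block, and -0.53 to 0.74 without single arrays. Myc in adenoma against adjacent tissue was -0.28 to 0.79, and Max in CT26 against adenoma -0.25 to 0.051. In the difference of differences Ccnd3 was -0.61 in the authors' table and -0.70 with quantile normalization (-0.13 to 0.28 without single arrays), Max was -0.25 in both, and Ccnd1 was -0.64 to 0.34 without single arrays. The cause was not tested.

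With a replicate block, 3 members were called in CT26 against colon (Ccne1 lost, adjusted p = 0.0136), and 6 in adenoma against small intestine, with no other call of a member changed. Deviations of same-numbered arrays correlated at -0.0946 to 0.116 in adenoma against small intestine and at -0.125 to 0.0862 in CT26 against colon. They were 0.0123 to 0.238 in colon against small intestine and 0.141 to 0.291 in the 2 pairs of adjacent tissue and small intestine. These pairs go by replicate number, but adjacent replicates 1 and 2 carry the numbers 2 and 3 in their titles. Paired by title, adjacent tissue and small intestine gave -0.141 and 0.207. Not every pair passed 0.1 in any comparison with 3 pairs, so the samples were taken to share only a number.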
